A study of Mus musculus with 32 samples.

Results

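The genes described here encode heat shock proteins and their J-domain partners, the molecular chaperones that fold, hold and clear proteins. They were taken as every gene whose symbol begins with Hsp, Dnaja, Dnajb or Dnajc, that is not a pseudogene, and that had at least 10 counts in 8 or more of the 32 striatal libraries. Of 90 symbols that matched, 15 were pseudogenes and 16 fell below the count minimum, which left 59 genes of the 55415 annotated features. They comprised 21 Hsp genes and 38 J-domain genes (4 Dnaja, 9 Dnajb and 25 Dnajc). Dnajc25 was just inside the minimum, with at least 10 counts in 10 libraries, and Hspb6, Dnajb3 and Hspg2 were just outside it, with 6, 4 and 2 such libraries. Hspb11 carries the family's name but is known as a component of intraflagellar transport, and Hspbp1 is a nucleotide exchange factor that acts on Hsp70 rather than a chaperone itself.

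The libraries came from the striatum of mice on a B6 background at 12 months of age, in 4 groups of 8 labelled as separate animals. YAC128 mice carry a yeast artificial chromosome with the full-length human huntingtin gene bearing an expanded CAG repeat, and are used as a model of Huntington disease. They received AON12.1, an antisense oligonucleotide against huntingtin RNA, or a scrambled oligonucleotide, each at 500 µg in 10 µL, or artificial cerebrospinal fluid (aCSF) alone, and their wild-type (WT) littermates were given aCSF. All 4 groups therefore had a ventricular cannula, 3 injections beginning at about 6 months of age (the later ones after 2 and 4 weeks), isoflurane anaesthesia, and an MRI scan directly before they were killed with CO2; no group without these procedures was studied. The animals carried numbers beginning with 18 or 19. Of those beginning with 18 there were 2 in the AON12.1 group, 2 in the scrambled group, 4 in the YAC128 aCSF group and 3 in the WT group.

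Heat shock proteins are named for their induction by heat, but most are made at all times. Hsp70 proteins bind exposed hydrophobic stretches in a cycle driven by ATP. J-domain proteins deliver the substrate and stimulate the ATPase, and Hsp110 proteins and other exchange factors release the nucleotide. When unfolded protein accumulates, heat shock factor 1 binds repeated GAA units in promoters and raises transcription of a subset of these genes, among them Hspa1a, Hspa1b, Hspb1 and Dnajb1. Several members, Dnajb6 and Dnajb2 among them, are known for suppressing aggregation of polyglutamine proteins in cell and animal models.

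Each library held between 658934 and 1419313 counts assigned to genes, and the feature that has no mouse Ensembl identifier lay between 94.4 and 177 CPM (counts scaled to a common library size) in AON12.1 libraries, 104 and 169 in scrambled libraries and 119 and 188 in YAC128 aCSF libraries, against 0 to 7.06 in WT libraries. Striatal projection neuron markers (12 of 12 detected) summed to between 6210 and 10947 CPM in AON12.1 libraries, 3355 and 7812 in scrambled libraries and 3521 and 7114 in YAC128 aCSF libraries, against 5361 to 11404 in WT libraries. Choroid plexus markers were low except in 1 library, YAC128 aCSF replicate 4, where those in the fit summed to 3879 CPM. The libraries are bulk tissue, so fewer cells of a type and less RNA per cell cannot be told apart.

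The promoters of stress-inducible genes are shown first, because Hspa1a, Hspa1b, Hspb1 and Dnajb1 turned out to vary together and the control sequences of such genes are known. Hsph1 and Hspe1 are shown beside them, although their relation to Hspa1a, given below, did not pass (r = 0.535 and 0.151). They are 300-base windows from RefSeq on GRCm38.p6, from 250 bases before to 50 after the annotated start, read 5′ to 3′. Capitals mark paired GAA units facing each other (GAANNTTC) or away from each other (TTCNNGAA), the core of a heat shock element.
Hspa1a, chr17:34972107-34972406, minus strand: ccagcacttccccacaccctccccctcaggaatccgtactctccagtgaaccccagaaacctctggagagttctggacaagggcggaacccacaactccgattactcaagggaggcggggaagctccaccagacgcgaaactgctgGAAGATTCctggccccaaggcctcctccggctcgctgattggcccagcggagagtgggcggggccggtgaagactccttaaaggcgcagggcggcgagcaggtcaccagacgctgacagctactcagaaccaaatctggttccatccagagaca
Hspa1b, chr17:34959189-34959488, minus strand: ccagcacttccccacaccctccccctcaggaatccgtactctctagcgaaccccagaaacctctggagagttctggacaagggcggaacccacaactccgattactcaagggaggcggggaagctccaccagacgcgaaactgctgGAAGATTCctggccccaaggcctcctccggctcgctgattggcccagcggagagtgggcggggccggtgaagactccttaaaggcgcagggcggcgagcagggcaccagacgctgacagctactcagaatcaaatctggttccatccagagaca
Hspb1, chr5:135887669-135887968, plus strand: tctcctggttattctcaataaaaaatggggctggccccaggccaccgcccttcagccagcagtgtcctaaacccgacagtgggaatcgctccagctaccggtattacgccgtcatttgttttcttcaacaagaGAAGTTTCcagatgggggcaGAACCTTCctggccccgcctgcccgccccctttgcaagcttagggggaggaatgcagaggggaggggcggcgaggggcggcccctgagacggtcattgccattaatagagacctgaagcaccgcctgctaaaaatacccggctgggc
Hsph1, chr5:149636287-149636586, minus strand: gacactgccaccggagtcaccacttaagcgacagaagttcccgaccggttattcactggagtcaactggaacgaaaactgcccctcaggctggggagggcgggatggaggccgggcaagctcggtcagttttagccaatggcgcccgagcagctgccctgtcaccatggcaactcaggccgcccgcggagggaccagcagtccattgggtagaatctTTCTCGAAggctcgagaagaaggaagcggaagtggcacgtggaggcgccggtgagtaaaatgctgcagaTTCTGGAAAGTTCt
Hspe1, chr1:55087898-55088197, plus strand: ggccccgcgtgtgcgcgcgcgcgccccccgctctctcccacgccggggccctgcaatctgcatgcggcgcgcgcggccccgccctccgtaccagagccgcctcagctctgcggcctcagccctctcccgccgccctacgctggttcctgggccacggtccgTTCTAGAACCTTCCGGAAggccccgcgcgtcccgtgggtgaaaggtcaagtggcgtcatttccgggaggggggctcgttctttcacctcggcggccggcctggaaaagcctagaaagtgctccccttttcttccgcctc
Dnajb1, chr8:83607925-83608224, plus strand: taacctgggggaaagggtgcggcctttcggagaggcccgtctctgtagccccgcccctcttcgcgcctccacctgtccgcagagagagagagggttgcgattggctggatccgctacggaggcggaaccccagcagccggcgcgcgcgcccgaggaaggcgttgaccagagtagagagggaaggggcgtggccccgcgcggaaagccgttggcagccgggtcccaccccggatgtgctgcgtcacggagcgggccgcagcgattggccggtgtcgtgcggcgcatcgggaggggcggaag
The Hspa1a and Hspa1b windows differed at 4 of 300 positions (98.7% identity), written from Hspa1a to Hspa1b and counted from 1 at the 5′ end as C44T, T47C, T249G and C276T. Both held 1 match, at the same place, starting 104 bases before the annotated start. Hspb1 held 2 matches, Hsph1 3, of which 2 lay after the start, and Hspe1 3 that overlap into one run. The Dnajb1 window, the first of 2 listed for that gene, had no match to either pair, and the other window had none either. This says only that these letters are absent from those windows. The Hsph1 window is also the first of 2 listed.

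**Figure D1:**
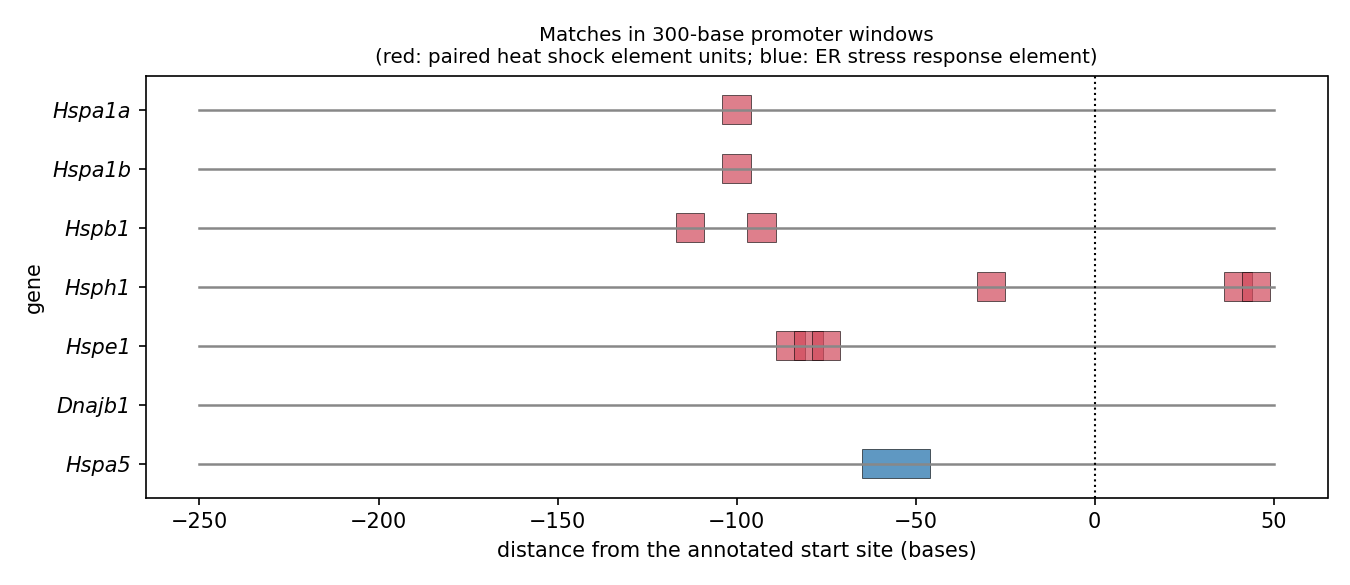
Position of motif matches in the 300-base promoter windows of 7 members, in bases from the annotated start site (dotted line). Red bars are paired heat shock element units and the blue bar is an ER stress response element. Hspa1a and Hspa1b have their match at the same distance, 104 bases before the start, and Dnajb1 has none.

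A promoter window was found for 48 of the 59 members. Counting both strands, which are the same for these palindromes, GAANNTTC occurred in 11 of the 48 (22.9%) and in 9.04% of the 27025 genes with a window. The 11 were Dnaja1, Dnaja4, Dnajb6, Dnajc27, Hspa1a, Hspa1b, Hspb1, Hspb8, Hspd1, Hspe1 and Hsph1. TTCNNGAA occurred in 6 members (12.5%) and in 9.60% of all genes. The 3-unit forms, in which either pair is followed after 2 more bases by a further unit in the alternate orientation, occurred in 4 members (8.33%), Dnajb6, Hspd1, Hspe1 and Hsph1, and in 0.662% of all genes. A match describes the letters and is not a binding site.

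No member changed between groups at an adjusted p under 0.05 in any of the 8 comparisons made with edgeR's quasi-likelihood test. The fit covered 10679 genes and held 58 of the 59 members, all but Dnajc25. For YAC128 aCSF against WT aCSF, 0 of 58 members were called, where 0.0749% of all genes were, and 4 members had an unadjusted p under 0.05 (6.90%, against 12.5% of all genes), all of them higher in YAC128, where 6.79% of all genes were higher and 5.76% lower at that p. The 4 were Hspa1a, Hspa1b, Hspb1 and Dnajb1, which varied together by library, so they are not 4 separate observations. Without YAC128 aCSF replicate 2 the count was 2. For AON12.1 against scrambled, 0 were called (background 0.14%) and 1 member was under 0.05 unadjusted (1.72%, against 7.25%), lower with AON12.1; of all genes 3.39% were higher and 3.86% lower. For AON12.1 against YAC128 aCSF, 0 were called (background 0.309%) and 6 were under 0.05 unadjusted (10.3%, against 11.6%), all lower with AON12.1, where 6.53% of all genes were higher and 5.03% lower. DESeq2 called 1 member, Dnajb1, in this last comparison, and none in the others, although it gave no adjusted p to many members.

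The remaining comparisons gave the same count of 0. For scrambled against YAC128 aCSF the background was 0.0843%, and 3 members were under 0.05 unadjusted (5.17%, against 9.83%), 2 higher and 1 lower with scrambled, where 5.51% of all genes were higher and 4.33% lower. For AON12.1 against WT the background was 0.562%, and 5 members were under 0.05 unadjusted (8.62%, against 14.5%), 2 higher and 3 lower with AON12.1, where 7.39% of all genes were higher and 7.09% lower. For scrambled against WT the background was 0.169%, and 5 were under 0.05 unadjusted (8.62%, against 9.8%), 2 higher and 3 lower with scrambled, where 4.79% of all genes were higher and 5.01% lower. For the 3 YAC128 groups together against WT the background was 0.234%, and 10 were under 0.05 unadjusted (17.2%, against 13.5%), 4 higher and 6 lower in YAC128, where 6.73% of all genes were higher and 6.79% lower. A test for any difference among the 4 groups called 0.777% of genes and no member, with 10 members under 0.05 unadjusted (17.2%, against 14.9%). The unadjusted shares of members were thus at or below the background in 6 of these 8 tests.

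The members' fold changes were small. Their median log2 fold change was -0.03 for YAC128 aCSF against WT, -0.03 for AON12.1 against scrambled and -0.05 for AON12.1 against YAC128 aCSF, with a median standard error near 0.14. In no comparison did the libraries of any member separate 2 groups without overlap; of all genes, 0.0843% did so for YAC128 aCSF against WT and 0.0843% for AON12.1 against scrambled, 0.187% for AON12.1 and 0.0562% for scrambled against YAC128 aCSF, 0.243% for AON12.1 and 0.103% for scrambled against WT, and 0.0281% for the 3 YAC128 groups together against WT. On data simulated for the comparison of YAC128 aCSF with WT over 10556 genes, the same fit called 38% of genes changed by 0.5 on the log2 scale and 82.3% of those changed by 1, so changes near 0.5 could be missed. The simulation changed 100 genes by 0.5 and 96 by 1, where 8 genes were called in the real comparison. The adjustment is stricter when fewer genes change, so both shares may be too high for the real data. Members made up 0.754% ± 0.046 of gene counts in AON12.1 libraries, 0.802% ± 0.053 in scrambled libraries, 0.796% ± 0.047 in YAC128 aCSF libraries and 0.789% ± 0.035 in WT libraries (SD, n = 8 each).

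**Figure D2:**
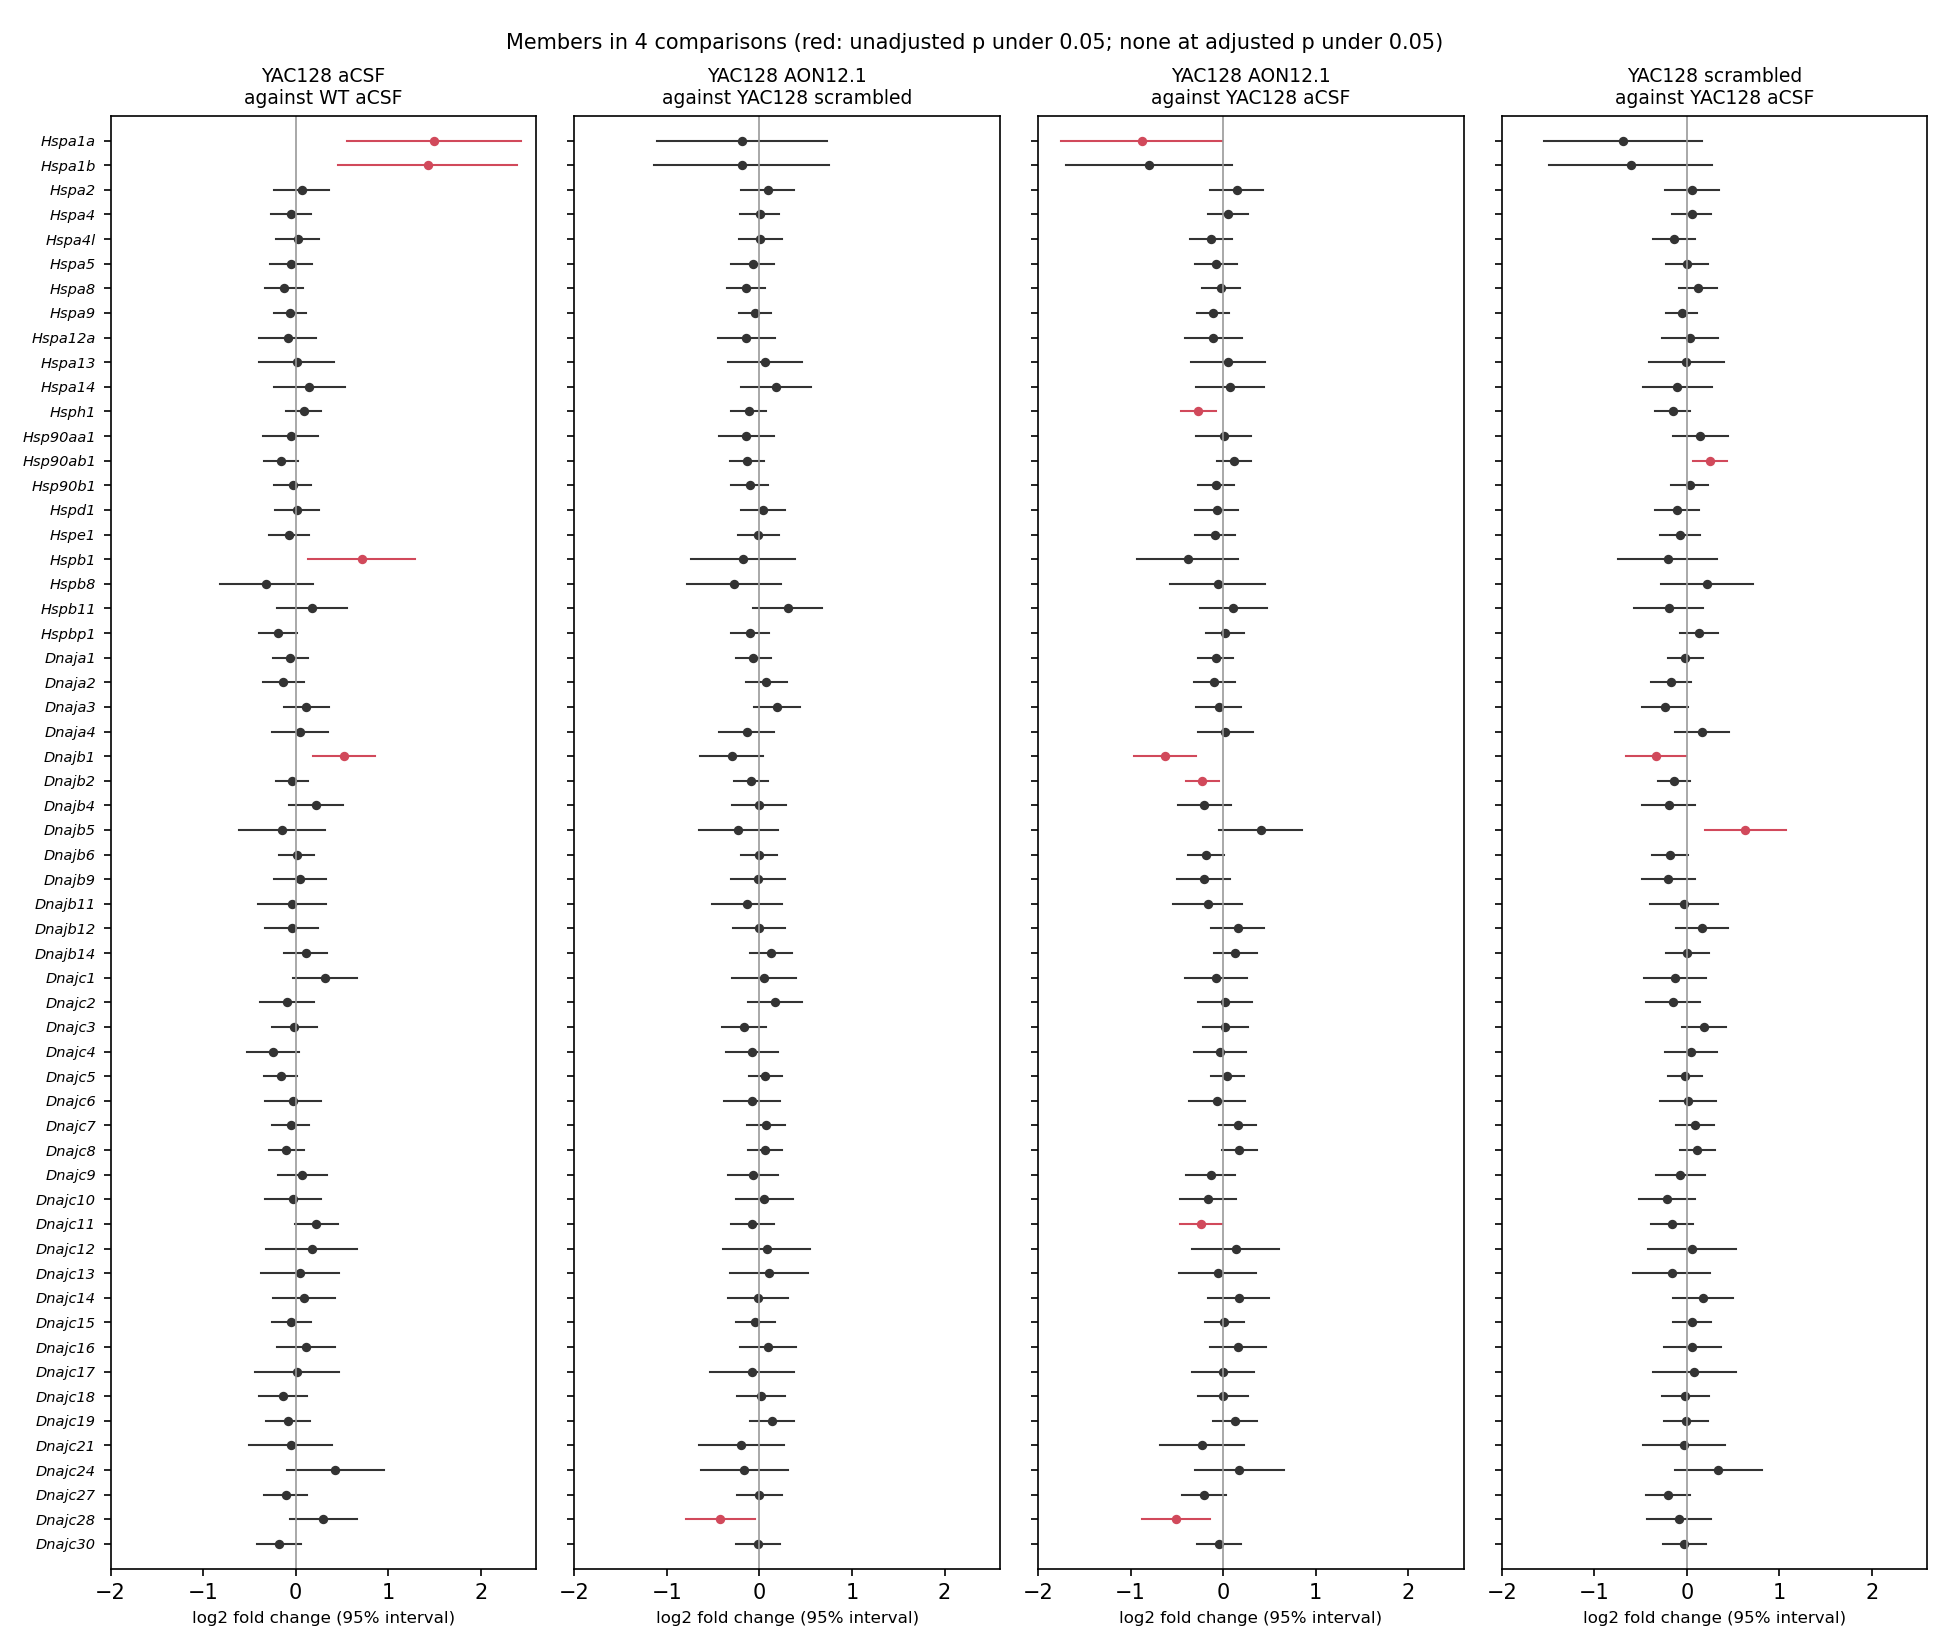
Log2 fold change of the 58 tested members, with 95% intervals, in 4 comparisons (columns), ordered by family. Red marks an unadjusted p under 0.05; no member passed an adjusted p of 0.05, and the widest intervals belong to Hspa1a and Hspa1b.

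The largest log2 fold change of any member was that of Hspa1a for YAC128 aCSF against WT (1.49), with Hspa1b at 1.43. Those of Hspb1 (0.71) and Dnajb1 (0.52) were smaller there. The stress-inducible genes were not at the extremes in every comparison. For AON12.1 against scrambled, members ran from -0.42 (Dnajc28) to 0.31 (Hspb11). Hspa1a, one of a tandem pair of genes for inducible Hsp70, ran from 12.6 to 143 CPM in AON12.1 libraries (median 30.8), 16.7 to 128 in scrambled libraries (median 33.6) and 22.5 to 253 in YAC128 aCSF libraries (median 52.7), against 10.5 to 49.3 in WT libraries (median 25.8). Its neighbour and near-copy Hspa1b ran from 13.7 to 136 CPM in AON12.1 libraries (median 21.8), 12.5 to 120 in scrambled libraries (median 35.8) and 27.2 to 224 in YAC128 aCSF libraries (median 44.2), against 9.68 to 49.3 in WT libraries (median 26.1). For both genes 2 of 8 AON12.1 libraries, 3 of 8 scrambled libraries and 4 of 8 YAC128 aCSF libraries stood above the highest WT library, and the rest lay inside the WT range. The last 500 bases of the 2 genes' annotated transcripts shared no 50-base stretch with any other gene, so this 3′-end assay could tell them apart there, although other parts of the 2 transcripts are alike.

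YAC128 aCSF libraries had Hspa1a at a log2 fold change of 1.49 ± 0.46 (SE) against WT (2.82-fold, 95% interval 1.47 to 5.39, adjusted p = 0.179). Hspa1b gave 1.43 ± 0.48 (adjusted p = 0.21). These differences did not pass the threshold and depended on 1 library: without YAC128 aCSF replicate 2, Hspa1a gave 0.91 (adjusted p = 0.412) and Hspa1b 0.87 (adjusted p = 0.463). Among animals numbered from 18 alone the Hspa1a difference was 1.85 (adjusted p = 0.437), and among those numbered from 19 alone it was 1.04 (adjusted p = 0.772).

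AON12.1 libraries had Hspa1a at -0.88 ± 0.43 on the log2 scale against YAC128 aCSF (adjusted p = 0.425), and -0.19 against scrambled. The first value was -0.30 without YAC128 aCSF replicate 2 and -1.46 without AON12.1 replicate 1, neither past the threshold. Among animals numbered from 18 it was -0.09, and among those numbered from 19 it was -1.06. Comparisons with YAC128 aCSF share those 8 libraries, so the positive value against WT and the negative values against aCSF are not separate observations.

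Dnajb1, the class B J-domain protein that partners inducible Hsp70 and a textbook heat shock factor target, ran from 67.8 to 98.9 CPM in AON12.1 libraries (median 70.2), 63.9 to 132 in scrambled libraries (median 89.1) and 66.6 to 234 in YAC128 aCSF libraries (median 95.9), against 72.9 to 87.4 in WT libraries (median 81.8). WT libraries were tightly grouped, and 1 of 8 AON12.1, 5 of 8 scrambled and 6 of 8 YAC128 aCSF libraries lay above the highest of them, while 6 of 8 AON12.1, 1 of 8 scrambled and 1 of 8 YAC128 aCSF libraries lay below the lowest. Its log2 fold change was 0.52 ± 0.17 for YAC128 aCSF against WT (adjusted p = 0.197) and -0.63 ± 0.17 for AON12.1 against YAC128 aCSF (adjusted p = 0.0842). The second was the nearest of any member to the threshold. It was past it with DESeq2 (adjusted p = 0.0307), with no filter on low counts (0.0353) and without YAC128 aCSF replicate 8 (0.0178), and further from it without YAC128 aCSF replicate 2 (log2 fold change -0.40, adjusted p = 0.305). Replicate 8 had the lowest Dnajb1 value of its group, 66.6 CPM, and replicate 2 the highest, 234 CPM. This fold change was also further from the threshold with only the groups compared (adjusted p = 0.191). With the animal number series as covariate its adjusted p was 0.11. Among animals numbered from 18 alone it was -0.70 (adjusted p = 0.234), and among those numbered from 19 alone -0.39 (adjusted p = 0.563).

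Hspb1 encodes the small heat shock protein Hsp25, which holds unfolding proteins without ATP. It ran from 7.89 to 34.4 CPM in AON12.1 libraries (median 12.4), 10.8 to 35.1 in scrambled libraries (median 16.9) and 13.1 to 39.1 in YAC128 aCSF libraries (median 21.7), against 8.16 to 19.8 in WT libraries (median 13.8). YAC128 aCSF against WT gave a log2 fold change of 0.71 ± 0.29 (adjusted p = 0.306), which was 0.52 without YAC128 aCSF replicate 2. Of the 50-base stretches in the last 500 bases of its transcript, 15.96% also occur in the pseudogene Hsp25-ps1, so its level is uncertain.

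**Figure D3:**
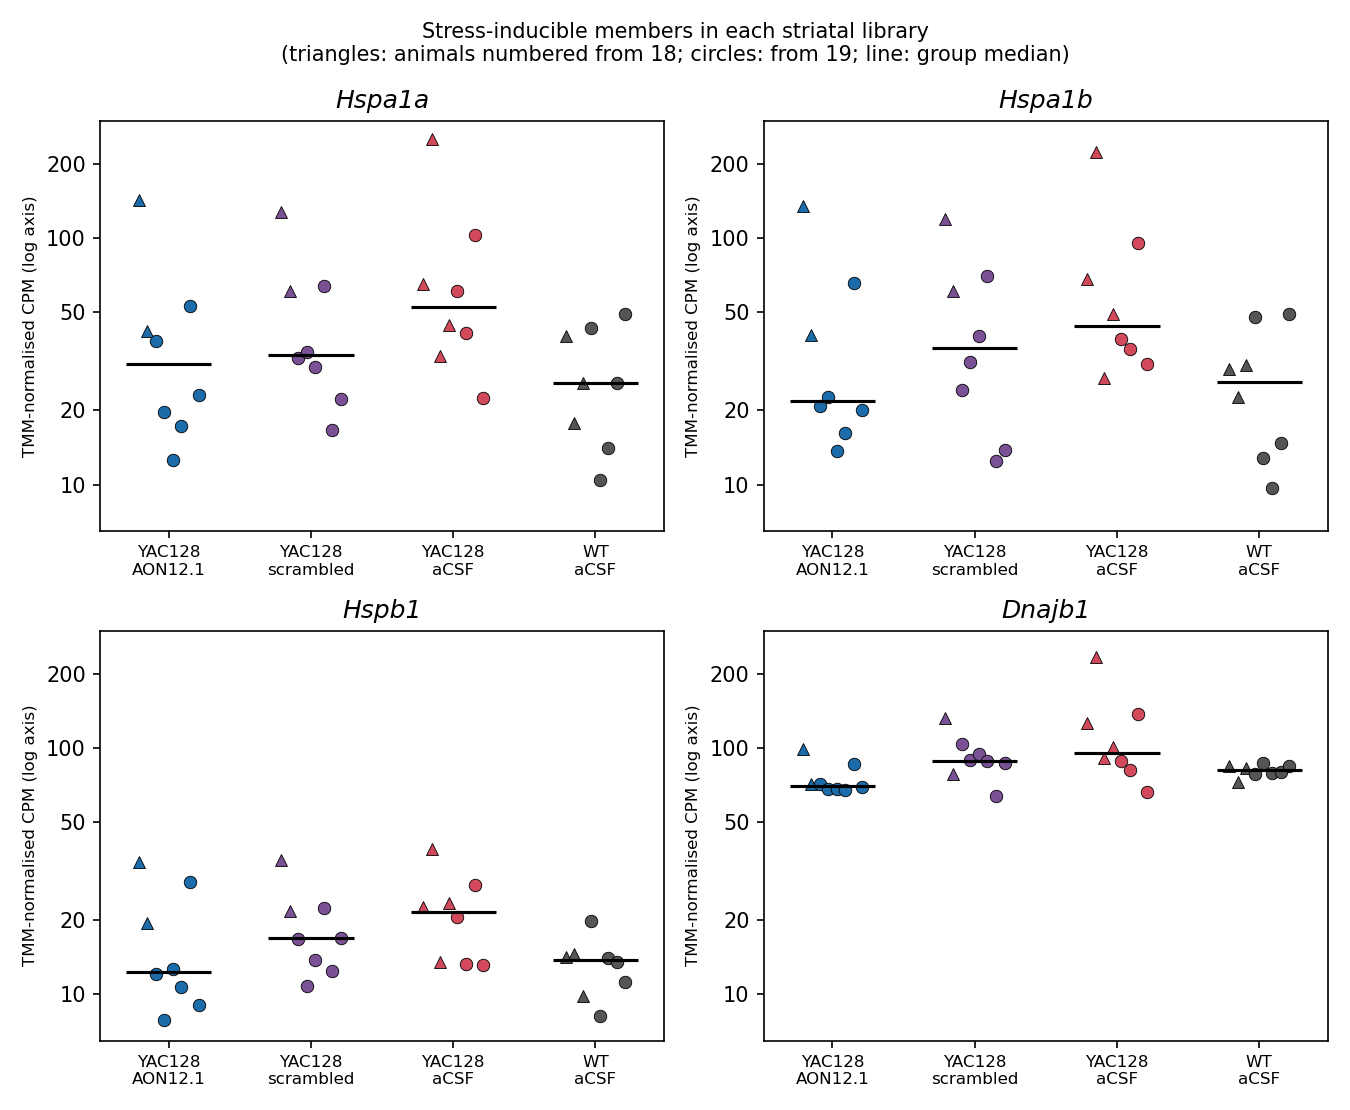
TMM-normalised CPM (log axis) of Hspa1a, Hspa1b, Hspb1 and Dnajb1 in each of the 32 libraries, by group, with triangles for animals numbered from 18, circles for those numbered from 19 and a line at the group median. AON12.1 replicate 1, scrambled replicate 1 and YAC128 aCSF replicate 2 are the highest library of their group in all 4 panels, and no WT library exceeds 49.3 CPM of Hspa1a.

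The same libraries were high for all 4 genes. AON12.1 replicate 1 had the group's highest Hspa1a (143 CPM), Hspa1b (136 CPM), Hspb1 (34.4 CPM) and Dnajb1 (98.9 CPM). Scrambled replicate 1 likewise had the highest Hspa1a (128 CPM), Hspa1b (120 CPM), Hspb1 (35.1 CPM) and Dnajb1 (132 CPM). YAC128 aCSF replicate 2 had the highest Hspa1a (253 CPM), Hspa1b (224 CPM), Hspb1 (39.1 CPM) and Dnajb1 (234 CPM). All 3 came from animals numbered from 18. Replicate 7 was second for all 4 genes in the AON12.1 and YAC128 aCSF groups, with Hspa1a at 53.0 and 103 CPM, and both of these animals were numbered from 19. In WT libraries the highest library was replicate 8 for Hspa1a and Hspa1b, replicate 4 for Hspb1 and replicate 5 for Dnajb1, so the 4 genes did not share a top library there.

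Across all 32 libraries, taken as deviations from each group's mean on the log2(CPM + 1) scale, Hspa1a moved with Hspa1b at r = 0.936 (rho = 0.913, permutation p = 1e-05, the smallest that 100000 permutations within groups can give, adjusted p = 0.00029). With Hspb1 it was r = 0.81 (rho = 0.76, permutation p = 1e-05, adjusted p = 0.00029), and with Dnajb1 r = 0.739 (rho = 0.644, permutation p = 3e-05, adjusted p = 0.00058). These 3 of 58 relations tested passed an adjusted p of 0.05. In WT libraries the Dnajb1 deviations stayed between -0.15 and 0.10, while those of Hspa1a ran from -1.18 to 0.95. Among the 10679 genes ranked by their r with Hspa1a, the 3 genes took ranks 1, 2 and 3. Hspa1a was chosen as the gene to rank against after the levels had been seen.

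The relations stayed positive when the 2 farthest libraries were left out and within each animal series. Without the 2 libraries farthest from the median of Hspa1a, r was 0.906 for Hspa1b, 0.732 for Hspb1 and 0.628 for Dnajb1. Scrambled replicate 1 stayed in, so this check does not cover every extreme library. Within the 11 animals numbered from 18, r was 0.976, 0.89 and 0.832 for the same genes, and within the 21 numbered from 19 it was 0.882, 0.673 and 0.55. The highest Hspa1a library of each YAC128 group was among the animals numbered from 18. Hsph1, the Hsp110 exchange factor, followed at rank 17 (r = 0.535, rho = 0.436, permutation p = 0.00362, adjusted p = 0.0525), but with r = 0.327 without the 2 farthest libraries. Beside the members, the genes nearest to Hspa1a were Srsf7 (r = 0.695), Rsrp1 (r = 0.691) and March8 (r = 0.647), given as a description.

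**Figure D4:**
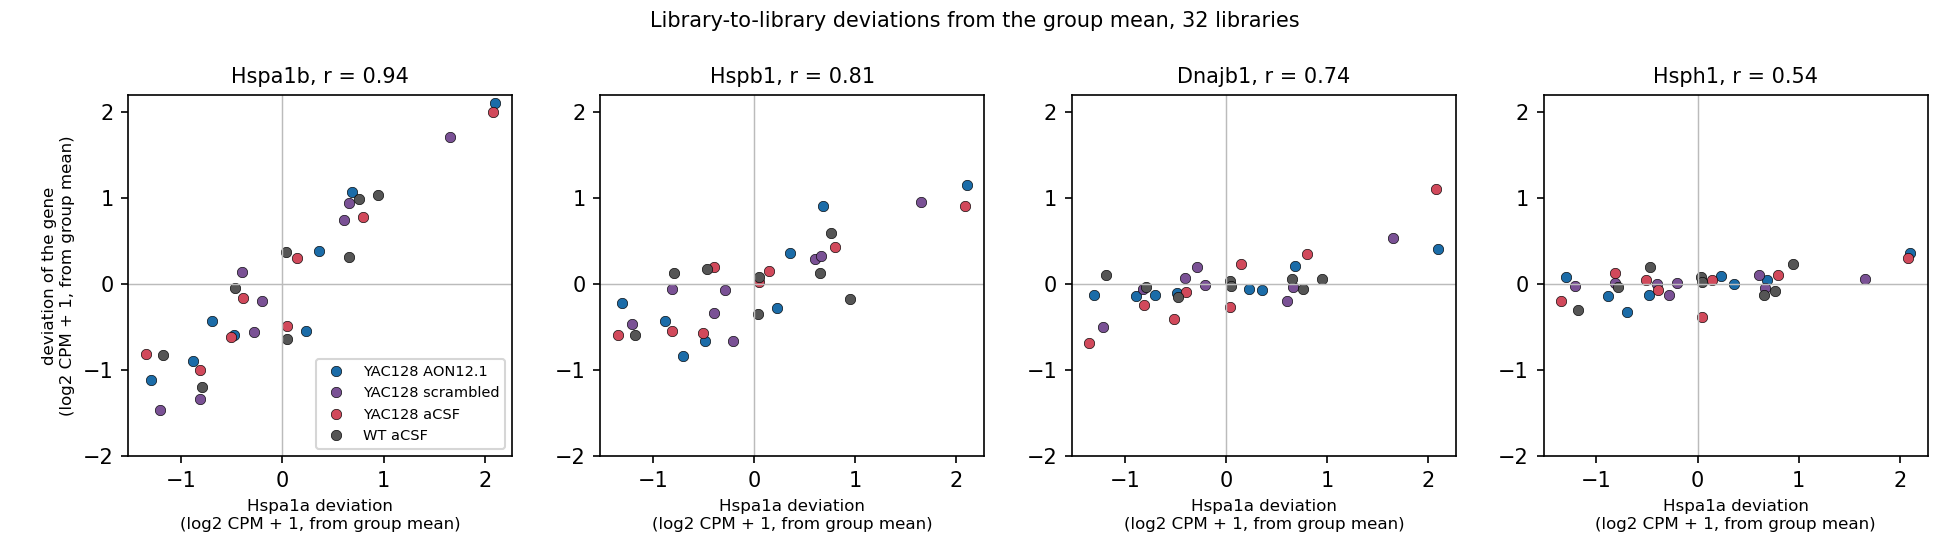
Deviation of Hspa1b, Hspb1, Dnajb1 and Hsph1 from the group mean (log2 of CPM + 1) against that of Hspa1a, for 32 libraries coloured by group. Points run along a rising line for Hspa1b (r = 0.94), Hspb1 (r = 0.81) and Dnajb1 (r = 0.74) and more weakly for Hsph1 (r = 0.54). In the Dnajb1 panel the WT libraries stay between -0.15 and 0.10, while their Hspa1a deviations run from -1.18 to 0.95.

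The other 9 members on the list of textbook heat shock factor targets had lower r with Hspa1a, and none passed. The highest were Hspd1 (r = 0.382, rho = 0.42, adjusted p = 0.429, rank 146, with r = 0.703 among animals numbered from 18 and 0.253 among those numbered from 19) and Dnajb4 (r = 0.261, rank 711). Hspe1 had r = 0.151, Hsp90ab1 0.15, Dnaja1 0.104, Hspa8 0.0775, Hsp90aa1 0.067, Hspa4l 0.0621 and Hspb8 -0.0189. Hsf1, the factor itself, had r = -0.0121 with Hspa1a, and the co-chaperone Bag3 0.286. The Hspa1a deviations were also set against 10 measures of the libraries: total counts (r = 0.163), the share of counts in no annotated feature (r = 0.0283), the mitochondrial share (r = -0.0268) and 7 marker sums, which ran from r = -0.182 for choroid plexus to 0.26 for cortical excitatory neurons. None passed (smallest permutation p = 0.189 for r, with an adjusted p of 0.907).

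The spread between libraries of the same group set Hspa1a and Hspa1b apart from the other members. The coefficient of variation within groups, averaged over the 4 groups, was 81.3% for Hspa1b and 79.7% for Hspa1a, at the 99.3 percentile among all genes, and 41.9% for Hspb1. At the other end it was 10.1% for Hspa9, the mitochondrial Hsp70, and 10.3% for Dnajb2. The median over the members was 18.99%, against 21.6% over all genes in the fit.

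**Figure D5:**
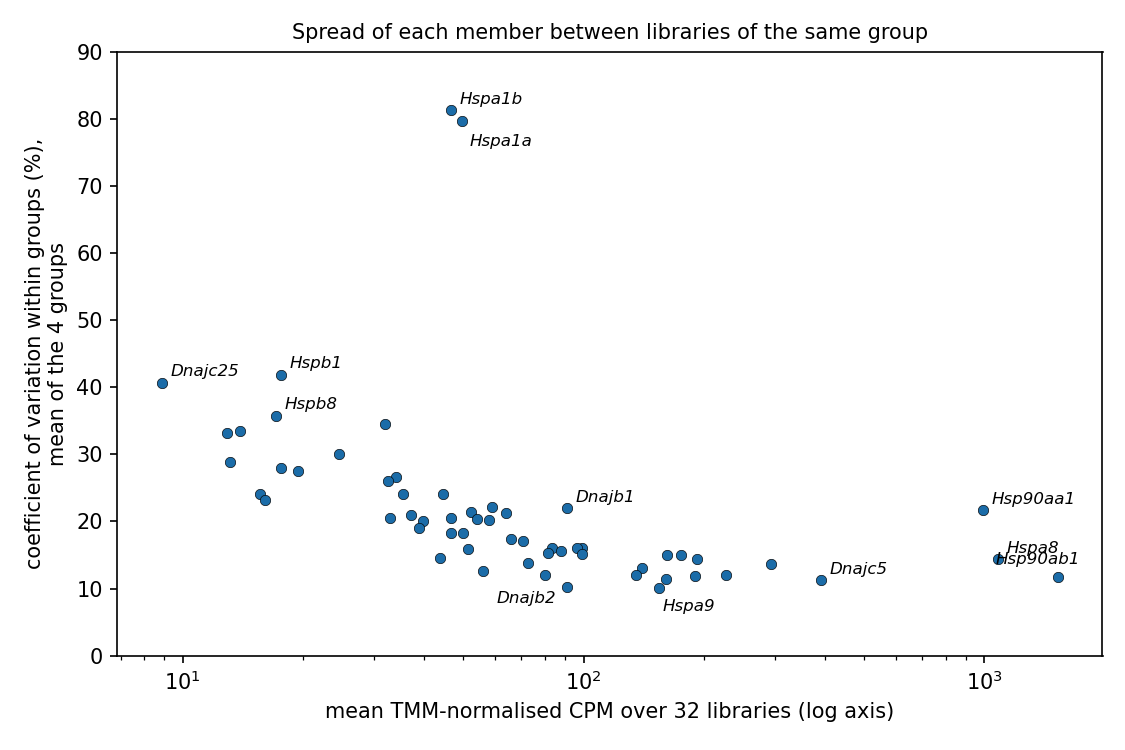
Coefficient of variation within groups (mean of the 4 groups, %) against mean CPM (log axis) for the 59 members. Hspa1a and Hspa1b lie near 80%, well above members with similar mean counts, and Hspa9 has the lowest value, 10.1%.

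The constitutive Hsp70 genes varied less. Hspa8, the housekeeping Hsc70, had a median of 1004 CPM in AON12.1 libraries (935 to 1177), 1114 in scrambled libraries (983 to 1343) and 979 in YAC128 aCSF libraries (942 to 1400), against 1053 in WT libraries (942 to 1707). Its log2 fold changes lay between -0.15 and 0.12 in the 7 comparisons between groups. In the last 500 bases of its transcript 81.8% of 50-base stretches are shared with pseudogenes, so its level here is uncertain. Hspa4 and Hspa4l, relatives of the exchange factor Hsph1, had log2 fold changes within -0.05 to 0.05 and -0.14 to 0.02. Hspa2 lay between 0.06 and 0.21, Hspa12a between -0.19 and 0.03 and Hspa13 between 0.00 and 0.06, and Hspa14 between -0.10 and 0.22. Hsph1 itself ran from 114 to 184 CPM in AON12.1 libraries (median 147) and 133 to 213 in YAC128 aCSF libraries (median 179), a log2 fold change of -0.27 ± 0.09 (adjusted p = 0.22).

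The cytosolic Hsp90 genes, whose products mature kinases and steroid receptors, moved together by library, and neither passed the test between groups. Hsp90ab1, the constitutive form, had a median of 1473 CPM in AON12.1 libraries, 1701 in scrambled libraries and 1396 in YAC128 aCSF libraries, against 1533 in WT libraries. The scrambled value against YAC128 aCSF was 0.25 ± 0.09 on the log2 scale (adjusted p = 0.338). Hsp90aa1, the inducible form, had medians of 931, 1105 and 917 CPM in the same 3 YAC128 groups and 995 CPM in WT libraries, and its log2 fold changes lay between -0.14 and 0.15. Deviations of Hsp90aa1 and Hsp90ab1 from their group means gave r = 0.691 (rho = 0.64, permutation p = 6e-05, adjusted p = 0.00048 over 8 partner pairs), r = 0.575 without the 2 farthest libraries, and 0.701 and 0.693 within the animals numbered from 18 and from 19. Among the 8 pairs, Hspa8 and Hsph1 passed for rho only (rho = 0.463, permutation p = 0.00634, adjusted p = 0.0254). Their r was 0.387 (permutation p = 0.034, adjusted p = 0.0906), with 0.182 and 0.53 within the same animal series. Of the last 500 bases, 7.76% of 50-base stretches of Hsp90ab1 occur in a pseudogene.

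No member of the endoplasmic reticulum passed the test. Hspa5, the Hsp70 of that compartment known as BiP, ran from 117 to 199 CPM in AON12.1 libraries (median 154), 114 to 215 in scrambled libraries (median 156) and 120 to 199 in YAC128 aCSF libraries (median 165), against 147 to 189 in WT libraries (median 168). The groups overlapped throughout, and its log2 fold changes lay between -0.13 and 0.00. Hsp90b1, its Hsp90 counterpart, lay between -0.11 and 0.03. Among their J-domain partners, Dnajc3 lay between -0.17 and 0.19, Dnajb9 between -0.21 and 0.04, Dnajb11 between -0.20 and -0.03, Dnajc10 between -0.24 and 0.05, and Dnajc1 between -0.13 and 0.31. The ER stress response element, CCAAT and CCACG with 9 bases between them on either strand, stood in 3 of 48 member promoters (6.25%), those of Hspa5, Hsp90b1 and Dnajc3, and in 0.137% of all genes. The Hspa5 window is shown with that match in capitals.
Hspa5, chr2:34771840-34772139, plus strand: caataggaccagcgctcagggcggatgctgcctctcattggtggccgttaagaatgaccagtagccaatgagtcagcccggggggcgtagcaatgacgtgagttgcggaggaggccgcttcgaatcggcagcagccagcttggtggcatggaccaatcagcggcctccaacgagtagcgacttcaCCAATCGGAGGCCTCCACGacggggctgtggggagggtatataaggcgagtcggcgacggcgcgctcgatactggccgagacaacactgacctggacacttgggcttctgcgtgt
Hspa5 and Hsp90b1 did not pass as a moving pair (r = 0.301, rho = 0.256, permutation p = 0.135, adjusted p = 0.27), nor did Hspa5 and Dnajc3 (r = 0.377, rho = 0.419, permutation p = 0.0245, adjusted p = 0.0906).

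Mitochondrial members gave fold changes of similar size. Hspa9 was at a median of 143 CPM in AON12.1 libraries, 150 in scrambled libraries and 159 in YAC128 aCSF libraries, against 163 in WT libraries, and its log2 fold changes lay between -0.16 and -0.05. The chaperonin Hspd1 (Hsp60) lay between -0.11 and 0.04 and its lid Hspe1 (Hsp10) between -0.16 and -0.01, and the pair gave r = 0.174 by library (rho = 0.161, permutation p = 0.395). Of the 50-base stretches at the end of the Hspe1 transcript 53.2% are shared with pseudogenes. Dnaja3, Dnajc15 and Dnajc19, J-domain proteins of the mitochondrion, had log2 fold changes between -0.24 and 0.19, -0.05 and 0.06, and -0.09 and 0.13.

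Among the small heat shock proteins, Hspb8, the partner of Bag3 in chaperone-assisted autophagy, ran from 6.46 to 25.1 CPM in AON12.1 libraries (median 15.4), 10.9 to 29.2 in scrambled libraries (median 17.0) and 7.04 to 25.0 in YAC128 aCSF libraries (median 16.5), against 10.6 to 24.7 in WT libraries (median 20.7). Its log2 fold changes lay between -0.38 and 0.22. Hspb6 was below the count minimum, with medians of 5.85, 7.39 and 5.75 CPM in AON12.1, scrambled and YAC128 aCSF libraries and 11.1 CPM in WT libraries. Hspb11, the intraflagellar transport protein, gave a log2 fold change of 0.31 ± 0.18 for AON12.1 against scrambled (adjusted p = 0.765).

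Of the class A and B J-domain genes other than Dnajb1, none passed the test. Dnajb2, a J-domain protein of neurons, ran from 71.8 to 90.6 CPM in AON12.1 libraries (median 82.1), 71.5 to 105 in scrambled libraries (median 88.2) and 81.0 to 107 in YAC128 aCSF libraries (median 93.6), against 81.8 to 112 in WT libraries (median 96.9). Its log2 fold change was -0.26 ± 0.09 for AON12.1 against WT (adjusted p = 0.159) and -0.23 ± 0.09 for AON12.1 against YAC128 aCSF (adjusted p = 0.283). Dnajb5 ran from 17.7 to 32.2 CPM in AON12.1 libraries (median 27.3), 15.8 to 50.9 in scrambled libraries (median 29.6) and 8.22 to 34.7 in YAC128 aCSF libraries (median 20.2), against 14.8 to 28.1 in WT libraries (median 21.7), and scrambled against YAC128 aCSF gave a log2 fold change of 0.63 ± 0.22 (adjusted p = 0.301). Dnajb6, whose protein is known for blocking polyglutamine aggregation, ran from 63.5 to 101 CPM in AON12.1 libraries and 70.8 to 98.5 in YAC128 aCSF libraries, and its log2 fold changes lay between -0.18 and 0.01. Dnaja2, a main partner of Hsc70, had a log2 fold change of -0.30 ± 0.11 for scrambled against WT (adjusted p = 0.348). Dnaja1, a further Hsc70 partner, lay between -0.14 and -0.02.

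The class C genes carry a J domain and otherwise differ widely, and 2 of them, Dnajc24 and Dnajc27, were among the 3 members with the smallest p in 3 comparisons each. Dnajc24, which takes part in making the diphthamide residue of elongation factor 2, ran from 8.78 to 19.4 CPM in AON12.1 libraries (median 13.7), 7.37 to 25.6 in scrambled libraries (median 15.2) and 5.68 to 18.7 in YAC128 aCSF libraries (median 12.8), against 4.91 to 11.7 in WT libraries (median 9.60). Scrambled stood 0.77 ± 0.25 above WT on the log2 scale (adjusted p = 0.262), and the 3 YAC128 groups together gave 0.60 ± 0.22 against WT (adjusted p = 0.216). Dnajc27, a small GTPase with a J domain, ran from 70.0 to 111 CPM in AON12.1 libraries (median 87.1), 66.7 to 110 in scrambled libraries (median 91.6) and 75.3 to 128 in YAC128 aCSF libraries (median 105), against 94.4 to 125 in WT libraries (median 118), and AON12.1 against WT gave a log2 fold change of -0.31 ± 0.12 (adjusted p = 0.222). Dnajc28 ran from 9.47 to 16.7 CPM in AON12.1 libraries (median 13.7), 12.5 to 24.4 in scrambled libraries (median 17.8) and 14.2 to 26.3 in YAC128 aCSF libraries (median 17.8), and AON12.1 gave a log2 fold change of -0.42 ± 0.18 against scrambled (adjusted p = 0.618) and -0.51 ± 0.18 against YAC128 aCSF (adjusted p = 0.227).

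The J-domain proteins of synaptic vesicles and of client transfer also stayed below the threshold. Dnajc5, the cysteine string protein of synaptic vesicles, was at a median of 399 CPM in AON12.1 libraries (316 to 435), 360 in scrambled libraries (312 to 470) and 386 in YAC128 aCSF libraries (294 to 413), against 416 in WT libraries (386 to 471), and the 3 YAC128 groups together gave a log2 fold change of -0.16 ± 0.07 against WT (adjusted p = 0.333). Dnajc6, or auxilin, which uncoats clathrin vesicles in neurons, lay between -0.10 and 0.01 in log2 fold change. Dnajc7, a carrier of client proteins between Hsp70 and Hsp90, lay between -0.06 and 0.16.

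In all, 17 of the 58 tested members had an unadjusted p under 0.05 in at least 1 of the 8 tests, against 37.6% of all genes, which is above the members' share. Those not yet named were Dnajb14 (log2 fold change 0.24 ± 0.12 for AON12.1 against WT), Dnajc11 (-0.24 ± 0.11 for AON12.1 against YAC128 aCSF), Dnajc4 and Dnajc30 (-0.24 ± 0.11 and -0.20 ± 0.10 for the 3 YAC128 groups together against WT), with adjusted p from 0.335 to 0.414. The other 41 had log2 fold changes between -0.38, for Hspb8, and 0.31, for Dnajc1, and a smallest adjusted p of 0.374. Among them were the membrane-anchored Dnajb12, the Hsp70 partner Dnajb4, Dnajc10 of the endoplasmic reticulum, the endosomal Dnajc13, the splicing-associated Dnajc8 and Dnajc17, the histone chaperone Dnajc9, the ribosome-bound Dnajc2 and Dnajc21, and Dnajc12, Dnajc14, Dnajc16 and Dnajc18.

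Genes that work with the members were read from lists of known chaperones and their partners. The lists were 7: heat shock factors and co-chaperones (28 of 28 tested), the CCT chaperonin (8 of 8), prefoldin (6 of 6), endoplasmic reticulum folding and the unfolded protein response (22 of 24), mitochondrial protein quality control (13 of 13), textbook heat shock factor 1 targets (23 of 23, of which 14 are members) and other chaperones (19 of 20). None of their genes passed the adjusted test in any comparison between groups. The textbook targets had 5 positive and 18 negative fold changes for AON12.1 against YAC128 aCSF (median -0.10) and for AON12.1 against scrambled (median -0.11), and 4 positive and 19 negative for AON12.1 against WT (median -0.10). They had 7 positive and 16 negative for scrambled against YAC128 aCSF (median -0.09), 8 and 15 for scrambled against WT (median -0.07), and 13 and 10 for YAC128 aCSF against WT (median 0.01). The endoplasmic reticulum list had 5 positive and 17 negative for YAC128 aCSF against WT (median -0.10). It had 15 and 7 for AON12.1 against YAC128 aCSF (median 0.03). In this last comparison the CCT list had 2 positive and 6 negative (median -0.10) and prefoldin 1 and 5 (median -0.08). Heat shock factors and co-chaperones had 13 and 15 there (median -0.02), and other chaperones 8 and 11 (median -0.04). The mitochondrial list had 8 and 5 (median 0.05). Negative signs thus also outnumbered positive ones in lists other than the textbook targets. The median over all genes was between 0.00 and 0.01 in these comparisons, and the comparisons share groups of libraries. Hsf1 had a median of 30.1 CPM in AON12.1 libraries, 31.2 in scrambled libraries and 34.9 in YAC128 aCSF libraries, against 27.0 in WT libraries.

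Markers of cell types differed between the same groups, and 8 of them passed the test in at least 1 comparison. The striatal projection neuron genes Adora2a and Penk fell in YAC128 aCSF libraries against WT, by 0.83 and 0.76 on the log2 scale (adjusted p = 0.0495 each, edgeR). The astrocyte genes Gfap (0.77, adjusted p = 0.041) and S100b (0.40, adjusted p = 0.0402) rose with AON12.1 against YAC128 aCSF. S100b also rose against WT, with AON12.1 (0.49, adjusted p = 0.00479) and with scrambled (0.41, adjusted p = 0.0498). The 10 astrocyte markers as a list were 6 positive and 4 negative for AON12.1 against YAC128 aCSF (median 0.02). Against WT they were 4 and 6, with AON12.1 (median -0.04) and with scrambled (median -0.05). The microglial genes C1qa and C1qb rose with scrambled against YAC128 aCSF, by 0.62 and 0.58 (adjusted p = 0.019 and 0.0182), and C1qa rose with scrambled against WT (0.56, adjusted p = 0.0324). Mobp, of oligodendrocytes, was lower than in WT with AON12.1 (log2 fold change -0.61, adjusted p = 0.00783) and in the 3 YAC128 groups together (-0.51, adjusted p = 0.00848), and the astrocyte gene Aldoc was lower in the 3 YAC128 groups together (-0.28, adjusted p = 0.0284). As a list, the 12 striatal projection neuron markers had 12 positive fold changes for AON12.1 against YAC128 aCSF (median 0.42, 9 with an unadjusted p under 0.05) and 12 for AON12.1 against scrambled (median 0.36, 6 under 0.05), and 11 negative for YAC128 aCSF against WT (median -0.31, 6 under 0.05). The 7 cortical excitatory neuron markers in the fit had 7 positive fold changes for scrambled against YAC128 aCSF (median 0.84, 4 under 0.05), and the 4 choroid plexus markers had 4 positive for YAC128 aCSF against WT (median 0.64, 3 under 0.05). In YAC128 aCSF replicate 4 the choroid plexus markers summed to 3879 CPM, against 167 to 321 in the rest of the group. Scrambled replicate 5 had 1888 CPM of cortical markers, against 261 to 771 in the rest of its group. The marker fold changes without these libraries were not tested. The part of cell composition in the members' fold changes was not tested.

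The share of counts in no annotated feature averaged 23.8% ± 6.70 in AON12.1 libraries, 22.1% ± 2.41 in scrambled libraries and 25.7% ± 4.92 in YAC128 aCSF libraries, against 19.5% ± 4.40 in WT libraries (SD, n = 8 each). Over all 32 libraries pooled, so that differences between groups enter r and its p, 2 of the 59 members were related to it by r. Dnaja1 gave r = -0.611 (rho = -0.455, permutation p = 0.00015, adjusted p = 0.00885 over 59 relations, and 0.147 for rho), with r = -0.438 without the 2 farthest libraries and -0.535 and -0.635 within the animals numbered from 18 and from 19. Dnajc1, an endoplasmic reticulum J-domain protein, gave r = 0.59 (rho = 0.553, permutation p = 0.00039, adjusted p = 0.0115), with r = 0.508 without the 2 farthest libraries and 0.687 and 0.562 within the same animal series. As deviations from the group means, permuted within groups, neither passed: r was -0.616 for Dnaja1 (adjusted p = 0.0826) and 0.525 for Dnajc1 (adjusted p = 0.109). By rho over the pooled libraries, Dnajc30 passed (rho = -0.587, permutation p = 0.00062, adjusted p = 0.0366), as did Dnajc1 (adjusted p = 0.0386). Dnajc30 did not pass by r (r = -0.453, permutation p = 0.00967, adjusted p = 0.114). As deviations from the group means its rho was -0.43 (adjusted p = 0.195). The median size of the pooled r was 0.182 over the members and 0.225 over all genes.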

How the data were processed

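RNA from the striatum of 32 mice was sequenced by mcSCRB-seq, a 3′-end method with sample barcodes and molecular identifiers, from 100 ng of total RNA. The authors deposited raw counts per gene for each library. Per the submitters' processing notes, the tools were HTSeq 0.12.4, STAR 2.7.5a, cutadapt 2.10 and FastQC, with the GRCm39 build; whether molecular identifiers were collapsed and whether strand was used are not given in the sources used here. Counting error therefore cannot be separated from amplification. Samples were grouped by the genotype and treatment labels.

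The 59 members, the gene lists and the tests were chosen with earlier results of these data known. Names and chromosomes came from GENCODE M21 (GRCm38), so no coordinates were carried over to the files' build. The 5 summary lines of each file stayed out of library sizes, which ran from 658934 to 1419313 counts; the report gives the share in no annotated feature. Counts from all 4 groups were fitted together in edgeR 4.0.16 (R 4.3.3) with TMM scaling, filterByExpr (minimum count 10, minimum total 15) and the quasi-likelihood test. Benjamini-Hochberg adjustment ran over 10679 genes, and a call needed an adjusted p under 0.05. The fit was tested on simulated data. Levels are TMM-normalised CPM, which correct for depth and composition; a 3′-end count per gene is not compared between genes. Correlations used log2(CPM + 1) and 100000 permutations (scipy 1.17.1).

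Members were named by a rule: the 3 with the smallest p in each comparison, 30 chosen by role, those with a library standing apart, and called genes of the lists. Alternatives were DESeq2 1.42.0, RLE scaling, other filters, only the groups compared, covariates, each animal series alone, and leaving out each library. Replicate numbers follow accession order and pair no samples.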

Additional observations from a re-analysis of the deposited data

Results flagged for a closer look

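Within groups of 8 libraries, 22 of the 236 combinations of member and group (9.32%) had a highest or lowest library that stood apart. Its gap to the next one, as a share of the group's range, was above Dixon's 95% critical value. About 1 in 20 would be flagged for normally distributed values. The CPM were not log-transformed and the share over all genes was not computed, so 9.32% cannot be read as an excess in members. The 22 combinations involved 15 members.

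The stress-inducible genes account for 6 of them. Hspa1a stood out in AON12.1 replicate 1 (143.29 CPM, next 53.0), scrambled replicate 1 (127.76 CPM, next 63.8) and YAC128 aCSF replicate 2 (253.06 CPM, next 103). Hspa1b stood out in AON12.1 replicate 1 (135.52 CPM, next 65.5) and YAC128 aCSF replicate 2 (223.77 CPM, next 95.3), and Dnajb1 in YAC128 aCSF replicate 2 (233.53 CPM, next 137).

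Hspa8, much of whose 3′ end is shared with pseudogenes, was high in YAC128 aCSF replicate 1 (1399.5 CPM, next 1117) and WT replicate 8 (1706.7 CPM, next 1250). Dnajc14 was high in AON12.1 replicate 2 (59.879 CPM) and scrambled replicate 1 (55.365 CPM), and Dnajc9 in AON12.1 replicate 5 (72.624 CPM) and YAC128 aCSF replicate 8 (63.82 CPM). Dnajc25, the member with the lowest counts, was 0 in AON12.1 replicate 2 and 19.959 CPM in YAC128 aCSF replicate 4. In AON12.1 libraries Dnajb9 was high in replicate 5 (73.677 CPM), Dnajc18 in replicate 2 (100.34 CPM), Dnajc2 and Dnajc3 in replicate 4 (107.44 and 69.984 CPM), and Hspd1 was low in replicate 3 (63.67 CPM). Dnaja1 was high in scrambled replicate 4 (271.19 CPM), Dnajc11 in YAC128 aCSF replicate 1 (69.62 CPM), and Dnajc19 was low in WT replicate 8 (64.774 CPM).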

How the results depend on the processing

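The count of members called was 0 in each of the 8 comparisons, and became 1 in 4 combinations of comparison and alternative, the member being Dnajb1 each time. For AON12.1 against YAC128 aCSF it was 1 with DESeq2 and 1 with no filter on low counts, and ranged from 0 to 1 when libraries were left out 1 at a time, the 1 coming without YAC128 aCSF replicate 8. For any difference among the 4 groups it also ranged from 0 to 1, the 1 coming without that same library. The cause was not tested. Of 1457 values of 36 named pairs of member and comparison under these alternatives, 1454 kept their direction and side of the threshold, 3 (Dnajb1) passed it in addition, and 0 reversed. The 236 group means moved by less than their spread under RLE scaling. The correlations with Hspa1a, recomputed with RLE scaling and a pseudocount of 5 CPM (chosen after seeing the data), were 0.94 for Hspa1b in both, and 0.81 and 0.83 for Hspb1. With a count minimum of 5 or 20 the rule gave 62 or 52 members. DESeq2 gave no adjusted p to 50 members for YAC128 aCSF against WT and to 27 for AON12.1 against YAC128 aCSF. The counts over all genes, which give the background shares, moved more: 54 with DESeq2 against 8 for YAC128 aCSF against WT (3 to 142 with 1 library left out, the highest without WT replicate 1), 94 against 33 for AON12.1 against YAC128 aCSF (26 to 73; 276 and 2 within the animals numbered from 18 and from 19), 106 against 60 for AON12.1 against WT (49 to 97), 33 against 18 for scrambled against WT (10 to 27), 20 against 9 for scrambled against YAC128 aCSF (3 to 13), 70 against 25 for the YAC128 groups together (13 to 103) and 138 against 83 for any difference. For AON12.1 against scrambled 7 were called with only those groups fitted, against 15. Fitting only the groups compared does not apply to the YAC128 groups together against WT or to any difference. No paired analysis was possible because the labels give animal numbers and no shared replicate numbers. With 8 libraries a group at these depths, the median member standard error was 0.139 on the log2 scale for YAC128 aCSF against WT; the part of depth in it was not tested. The count of members related to the no-feature share by r was 2 over pooled libraries and 0 as deviations from the group means, an alternative added after seeing the data.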
